A study of Rattus norvegicus with 16 samples.

Results

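rno-miR-193 and rno-miR-365 (miR-193 and miR-365 in the following) are a pair of microRNAs whose genes lie near each other in mammalian genomes. Their spots were taken by the name each non-control spot carries in the array files, and every probe of each name was kept. They are 2 of the 677 rat miRNAs on the array, with 4 of its 1644 probes and 40 of its 13540 spots (10 spots per probe). The pair was chosen with its levels in these muscles known, and the levels that guided the choice are the processed spot signal and the flag for a spot well above background. All differences of the pair between groups are therefore given as a description, with no p-value. Where a value of the pair is said to pass or miss a threshold, this is also a description and not a test.

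A microRNA pairs through its seed, near its 5′ end, with sites in messenger RNAs and lowers their translation or stability. In mouse, the cluster that holds miR-193b and miR-365 was reported to be induced by the transcription factor Prdm16 in brown fat precursors. It was reported to favour their differentiation and to lower the muscle programme, in part through the corepressor Runx1t1. Mammals also have a related gene pair, miR-193a with a copy of miR-365, so mature miR-365 can come from either locus.

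The samples were whole EDL and soleus muscle of male Fischer 344 rats, with 1 array each and 4 arrays per group. EDL (extensor digitorum longus) is made mostly of fast-twitch fibres and soleus mostly of slow-twitch fibres. Young rats were 6 to 7 months old and old rats 25 to 28 months. No treatment, transgene or mutation is given in the labels, and the arrays are named here by the muscle, age and number in the labels (young 7 to 10, old 1 to 4). The labels do not say that the arrays of a group came from separate animals, so the spread between arrays may be technical. All 8 EDL arrays lay on slide 1, with the young arrays in column 1 and the old arrays in column 2, so that age and column cannot be told apart. Young soleus lay on slide 2 and old soleus on slide 3, so that the slide cannot be told apart from age in soleus or from muscle at either age.

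The mature sequences that the array names stand for, with the seed (bases 2 to 8 from the 5′ end) in capitals, are shown because the seed decides which names could read the same targets. They are from RefSeq on build GRCr8, where rat Mir193 and Mir365b carry the array's older names as synonyms, and miR-193b-3p is added as the seed relative of miR-193.
rno-miR-193a-3p: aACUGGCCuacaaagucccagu
rno-miR-193b-3p: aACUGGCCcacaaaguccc
rno-miR-365-3p: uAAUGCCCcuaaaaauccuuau
Of the 693 mature rat names in that table, 2 share the seed of miR-193a-3p, itself and miR-193b-3p, and the seed of miR-365-3p is shared with no other name. Over their shared 19 bases the 2 miR-193 sequences differ at 1 position, U9C (counted from 1 at the 5′ end, miR-193a-3p base first). No probe named for miR-193b was analysed here, and whether the miR-193 probes also read miR-193b was not tested.

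The hairpins show where both mature strands come from, with the 3p arm named on the array in capitals.
Mir193: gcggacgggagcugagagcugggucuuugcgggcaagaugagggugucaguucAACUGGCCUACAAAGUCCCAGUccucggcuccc
Mir365b: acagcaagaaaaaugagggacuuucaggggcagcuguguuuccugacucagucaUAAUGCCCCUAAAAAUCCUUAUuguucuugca
Mir193 lies at chr10:65170317-65170402 and Mir365b at chr10:65184217-65184302 (GRCr8), both on the plus strand. The hairpins are 13.8 kb apart, with 0 annotated genes wholly between them and 1 gene model, Faul2, spanning both. Mir193b lies 63.3 Mb away on the same chromosome, inside the long noncoding RNA gene LOC102547286.

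EDL and soleus arrays differed in brightness, which bears on a dim miRNA. The 75th percentile of the 95 probes well above background on all 16 arrays, by which each array was divided, was 589 to 1864 units in EDL and 290 to 681 in soleus. Between 83 and 138 miRNAs were well above background on an EDL array and 58 to 85 on a soleus array. The labelling spike-in was in its stated range on 8 of 8 EDL and 2 of 8 soleus arrays. Striated muscle markers (miR-1, miR-133a, miR-133b, miR-206 and miR-499) were well above background in both muscles, miR-499 on 14 of 16 arrays and the others on all 16, and those of epithelium (4 of 4), neural cells (2 of 2) and liver (1 of 1) were well above background on 0 arrays.

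miR-365 was measured in every sample and was lower in soleus than in EDL at both ages. The brighter of its 2 probes was well above background on 16 of 16 arrays. Its processed signal was 309.2, 221.1, 119.9 and 333.8 units on young EDL arrays 7, 8, 9 and 10. On old EDL arrays 1 to 4 it was 258, 394.8, 189.9 and 342.4 units. In soleus it was 41.4, 61.5, 79.6 and 84.4 units on young arrays 7 to 10. On old soleus arrays 1 to 4 the signal was 44.3, 45.5, 44.7 and 53.8 units. Every EDL array was brighter for miR-365 than every soleus array, and the dimmest EDL array, young EDL 9, also had the lowest scaling percentile in EDL, 589 units. The spread among the spots of 1 array was small, with a coefficient of variation of 3.59 to 8.03% in EDL and 4.25 to 16.1% in soleus.

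**Figure D1:**
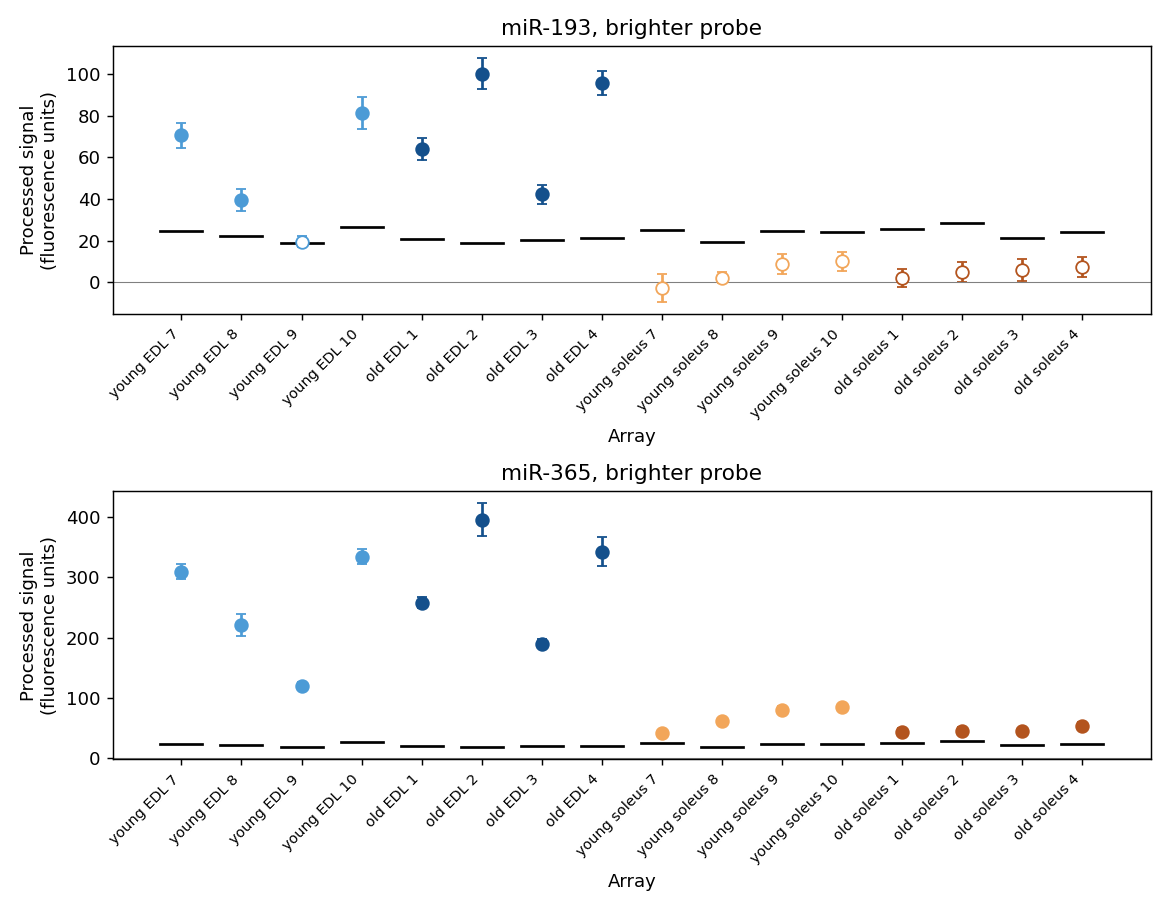
Processed signal (y axis, fluorescence units) of the brighter probe of miR-193 (top) and miR-365 (bottom) on each of the 16 arrays (x axis). Points are means over spots with the SD over spots, filled where the probe was well above background, and black bars mark the lowest signal well above background on that array. miR-365 is filled on all 16 arrays, whereas miR-193 is filled on 7 EDL arrays and open at 10 units or less on all 8 soleus arrays.

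After scaling, as percent of the array's percentile, miR-365 was 16.6, 21.4, 20.4 and 22.9% in young EDL. It was 20.3, 23, 21.9 and 18.7% in old EDL. Young soleus gave 14.3, 12.2, 11.7 and 12.6%, and old soleus 10.9, 11, 9.48 and 13.4%. The group means ran from 21% ± 1.88 (SD, n = 4) in old EDL, through 20.3% ± 2.69 in young EDL and 12.7% ± 1.13 in young soleus, to 11.2% ± 1.63 in old soleus. The EDL groups overlapped, as did the soleus groups, and neither soleus group overlapped an EDL group of its age.

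In the model fitted over all 114 tested miRNAs, miR-365 was 1.6-fold lower in soleus than in EDL of young rats (log2 difference -0.67, SE 0.12). In old rats it was 1.88-fold lower (log2 difference -0.91, SE 0.12). Both values lay past the threshold of an adjusted p of 0.05, as did 43% of all tested miRNAs in young rats and 53.5% in old rats. Lower in soleus past that threshold were 23.7% and 32.5% of tested miRNAs, and nothing is read from the pair's own count beside them. Groups without overlap, with soleus lower, were found for 18.4% of tested miRNAs in young rats and 30.7% in old rats. In whole muscle, fewer cells of a type and less RNA per cell cannot be told apart.

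The size of this difference moved with the scaling. Over 6 ways to scale the arrays, the young difference of miR-365 ran from -1.83 without scaling to -0.07 with the labelling spike-in, and the old difference from -2.6 to -0.48. These scalings also moved the median of all tested miRNAs, from -0.91 without scaling to 0.29 with the spike-in in young rats and from -1.56 to 0.1 in old rats. Relative to that median under the same scaling, miR-365 was lower by -0.92 to -0.36 in young and by -1.04 to -0.58 in old rats, with 0 of the 6 scalings turning the direction. Spot medians with no background subtraction gave 0.02 and 0.13, and were also below the median of all tested miRNAs. Background correction by normexp gave -0.55 and -0.19, neither past the threshold. Young soleus 7 and 8 had the lowest labelling and hybridisation spike-in signals of the 16 arrays, and without them the young difference was -0.74. Array brightness moved with the muscle. Over the 16 arrays the scaled log2 level of miR-365 correlated with the log2 scaling percentile (Pearson r = 0.71, a description). The correlation was -0.3 within EDL (n = 8) and -0.28 within soleus (n = 8). The scaled level is the signal divided by that same percentile, so nothing is read from the signs of r. The part of brightness in the muscle difference was not tested.

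Marker miRNAs of other cell types also differed between the muscles, in both directions. Beside the counts below, 23.7% of all tested miRNAs were lower past the threshold in young soleus and 32.5% in old soleus. Higher past it were 19.3% and 21.1%. Of the smooth muscle markers, 2 of 2 (miR-143 and miR-145) were lower in soleus at both ages. Their summed scaled level was 62.1 to 83.6% in young EDL and 47.3 to 59.7% in young soleus, and 64.1 to 84.9% and 41 to 52.8% in old EDL and old soleus. Of the fibroblast and mesenchyme markers, 4 of 5 were lower in young soleus and 2 of 5 in old soleus. Their sum ran from 56.3 to 87.9% in young EDL, 37.6 to 48.1% in young soleus, 65.3 to 107% in old EDL and 54.1 to 82.4% in old soleus. Of the 4 leukocyte markers, 2 were tested: miR-223 was higher in soleus (log2 difference 0.95 in young and 0.96 in old rats, limma adjusted p = 0.00544 and 0.00358), and miR-150 was lower (-0.31 and -0.73, limma adjusted p = 0.0194 and 4.55e-05). The summed leukocyte level was 25.6 to 28.8% in young EDL, 25.1 to 31% in young soleus, 29 to 35% in old EDL and 25.5 to 35% in old soleus. Of 2 endothelial markers, miR-126 was lower in old soleus (-0.48, limma adjusted p = 0.00654), with -0.33 in young rats (limma adjusted p = 0.0532). The summed endothelial level was 46.4 to 64.5% in young EDL, 42.7 to 51.3% in young soleus, 48.9 to 70.8% in old EDL and 39.3 to 48.3% in old soleus. Of the erythroid markers 1, miR-451, was tested and passed in neither comparison. The part of these cell types in the level of miR-365 was not tested.

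With age, miR-365 gave no difference past the threshold in either muscle. Old EDL differed from young EDL by 0.05 on the log2 scale (SE 0.12), and the sign of this value turned under 3 of the other 5 scalings. Old soleus differed from young soleus by -0.18 (SE 0.12), a value that kept its sign under all 6 scalings and passed the threshold only with the labelling spike-in (-0.48). The age effect in soleus minus that in EDL was -0.24 (SE 0.17). Past the threshold were 12.3% of tested miRNAs in EDL, 3.51% in soleus and 0.877% for the difference of the age effects. Age groups without overlap were found for 12.3% of tested miRNAs in EDL and 21.9% in soleus.

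The dimmer probe of miR-365 gave lower signal and a like order of the groups. It was well above background on 8 of 8 EDL and 5 of 8 soleus arrays. Its scaled level was 8.51% ± 1.33 in young EDL, 9.08% ± 1.08 in old EDL, 6% ± 0.847 in young soleus and 5.68% ± 0.685 in old soleus (SD, n = 4). The log2 differences on this probe, with no floor, were -0.5 between the muscles in young rats and -0.68 in old rats, against -0.67 and -0.91 on the brighter probe. The brighter probe exceeded the dimmer by 1.09 to 1.32 on the log2 scale on EDL arrays and by 0.95 to 1.21 on soleus arrays.

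**Figure D2:**
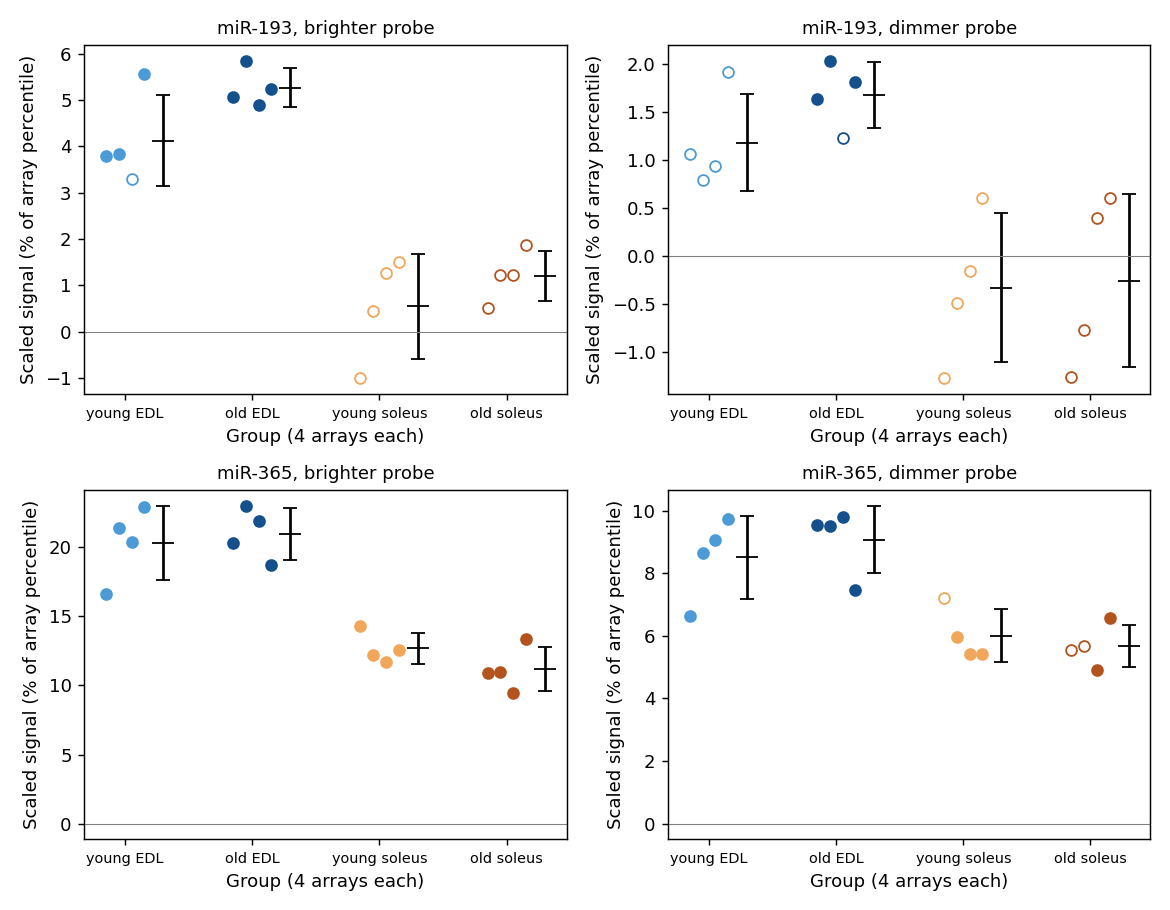
Scaled signal (y axis, percent of each array's scaling percentile) of both probes of miR-193 (top) and miR-365 (bottom) in the 4 groups of 4 arrays (x axis). Points are arrays, filled where the probe was well above background, and bars give the mean and SD. On the brighter probes the EDL means are 4.12 and 5.26% for miR-193 and 20.3 and 21% for miR-365.

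miR-193 was a dim miRNA of EDL and was not well above background in soleus. Its brighter probe was well above background on 7 of 8 EDL arrays and on 0 of 8 soleus arrays, so that it entered the tested set, which asked for 4 of 16 arrays, through EDL alone. The processed signal was 70.7, 39.6, 19.5 and 81.2 units on young EDL arrays 7, 8, 9 and 10. Old EDL arrays 1 to 4 gave 64.2, 100.3, 42.3 and 95.9 units. The exception in EDL was young EDL 9, where 5 of the 10 spots were well above background and the array as a whole was dimmest. Soleus gave -2.9, 2.2, 8.6 and 10 units on young arrays 7 to 10 and 2.1, 5, 5.7 and 7.4 units on old arrays 1 to 4. The mean of the negative control spots was 7.2 to 11.3 units on soleus arrays, and miR-193 exceeded it on 1 of 8, young soleus 9. Feature Extraction's own detection call for miR-193 was positive on all 8 EDL arrays and negative on all 8 soleus arrays.

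Scaled to the array's percentile, miR-193 was 3.79, 3.84, 3.3 and 5.56% in young EDL, a mean of 4.12% ± 0.989 (SD, n = 4). In old EDL it was 5.06, 5.85, 4.89 and 5.24%, a mean of 5.26% ± 0.418. In EDL the groups overlapped through young EDL 10, which lay above 3 of the 4 old arrays. The old minus young difference was 0.37 on the log2 scale (SE 0.11), not past the threshold. Leaving out young EDL 10 raised it to 0.52, past the threshold. With no floor under the values the difference was 0.38. The dimmer probe was well above background on 0 of 4 young and 3 of 4 old EDL arrays, with 5.5 to 28.1 units in young EDL, and no difference is drawn from it. The value was positive under all 6 scalings (0.07 to 0.58) and past the threshold under 1, the median of detected probes (0.21). The spot medians gave -0.02 and normexp -0.52, where the median of all tested miRNAs was -0.02 and -0.5.

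Cell type markers in the same arrays did not share 1 direction with age in EDL. The summed leukocyte markers did not overlap between the ages (values above), and 0 of the 2 tested passed the threshold. Among all tested miRNAs, 12.3% passed it with age in EDL, and 12.3% had age groups without overlap there. Of 5 fibroblast and mesenchyme markers, miR-21 and miR-140* rose, while miR-199a-3p (log2 difference -0.26), miR-199a-5p (-0.14) and miR-214 (-0.17) did not pass the threshold, and the median of the list was -0.14. Its summed level was 56.3 to 87.9% in young and 65.3 to 107% in old EDL. The part of these cells in the miR-193 value was not tested.

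A ratio inside 1 array needs no scaling, but it can still move with array brightness. In EDL, log2 of miR-193 over miR-365 on the brighter probes was -2.13, -2.48, -2.62 and -2.04 on young arrays 7 to 10. Old arrays 1 to 4 gave -2.01, -1.98, -2.17 and -1.84. The means were -2.32 ± 0.28 and -2 ± 0.14 (SD, n = 4), an old minus young difference of 0.32, which was 0.42 without young EDL 10. The groups overlapped. The ratio compares signals of different probes, so its size is not a ratio of molecules, and only its change between arrays is used. It was lowest on the dimmest EDL array, young EDL 9 (scaling percentile 589 units), and highest on old EDL 4 (1829.8 units). On the brightest, young EDL 7 (1864.3 units), it was -2.13. Scaled log2 miR-193 correlated with the log2 scaling percentile over the 8 EDL arrays (Pearson r = 0.57, a description). The part of brightness in the ratio was not tested.

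**Figure D3:**
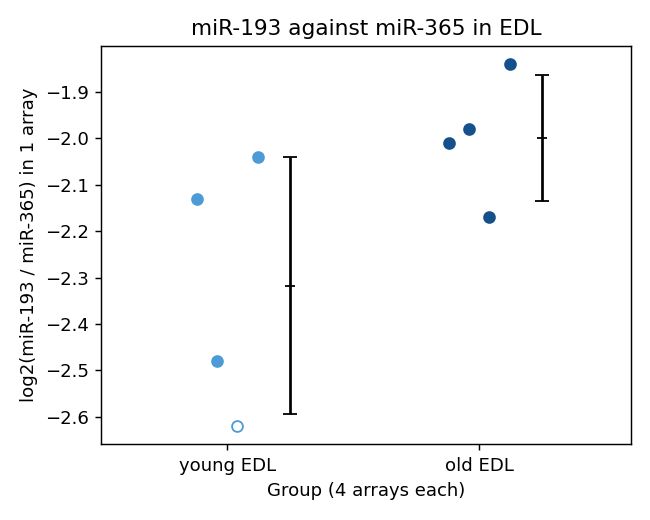
log2 ratio of miR-193 to miR-365 signal within 1 array (y axis) for young and old EDL, from the brighter probes, with mean and SD of 4 arrays. The open point is young EDL 9, where miR-193 was not well above background, and the old mean is higher by 0.32 with the groups overlapping.

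In soleus the level of miR-193 is only bounded. Had each soleus array carried miR-193 at the mean scaled level of EDL of the same age, its signal would have been 12 to 28.1 units. That expected signal exceeded the lowest signal well above background on 4 of the 8 arrays, 3 young and 1 old. The measured signal was below the expected one on 8 of 8 soleus arrays, at -24.2 to 36.1% of it in young and 9.86 to 35.1% in old soleus. The mean EDL level over the bound set by each soleus array's detection limit came to 0.888 in young and 0.894 in old rats, under 1, so no fold is given. On the other 4 arrays a level equal to that of EDL would have lain below the lowest signal well above background, although above the signal measured.

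**Figure D4:**
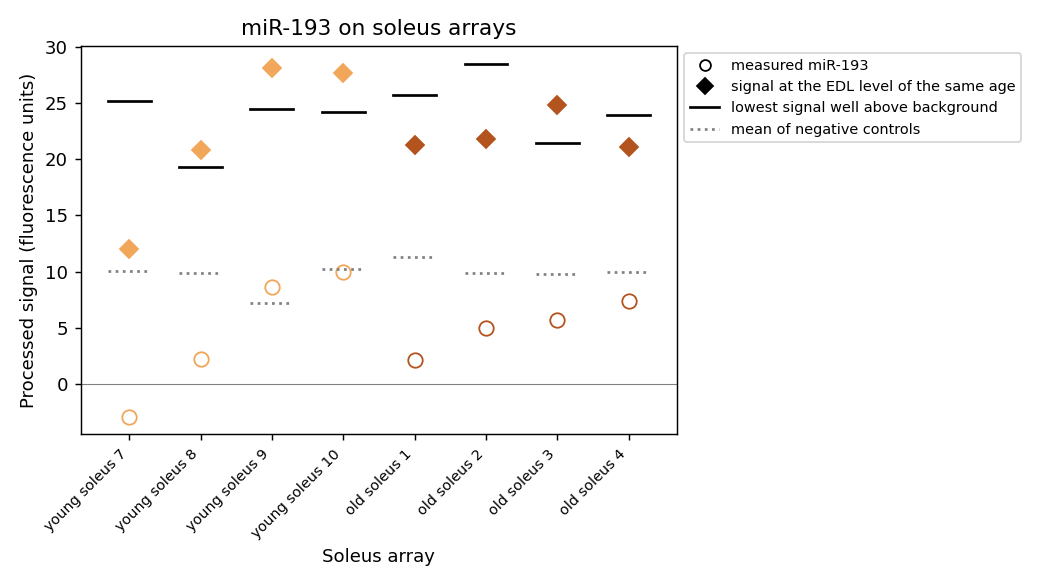
Processed signal (y axis, fluorescence units) of miR-193 on the 8 soleus arrays (x axis), as open circles, beside the signal it would have at the mean scaled EDL level of the same age (diamonds). Black bars mark the lowest signal well above background and dotted bars the mean of the negative controls. All 8 circles lie below their diamonds, and 4 diamonds lie above the black bar.

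Fitted values for miR-193 in soleus follow the floor that replaces dim values, here 3.39% of the percentile (log2 -4.88). All 8 soleus values lay at that floor, so the age difference in soleus was 0 by construction. Soleus minus EDL was -0.26 (SE 0.11) in young rats and -0.63 (SE 0.11) in old rats, values set by the floor on the soleus side, from which no call is read. A floor 4 times lower gave -1.91 in young rats. Raising each array to its own lowest signal well above background instead turned the signs, to 0.17 and 0.16. The difference of the age effects, -0.37 (SE 0.16), holds the same floored values and is the EDL difference with its sign turned.

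**Figure D5:**
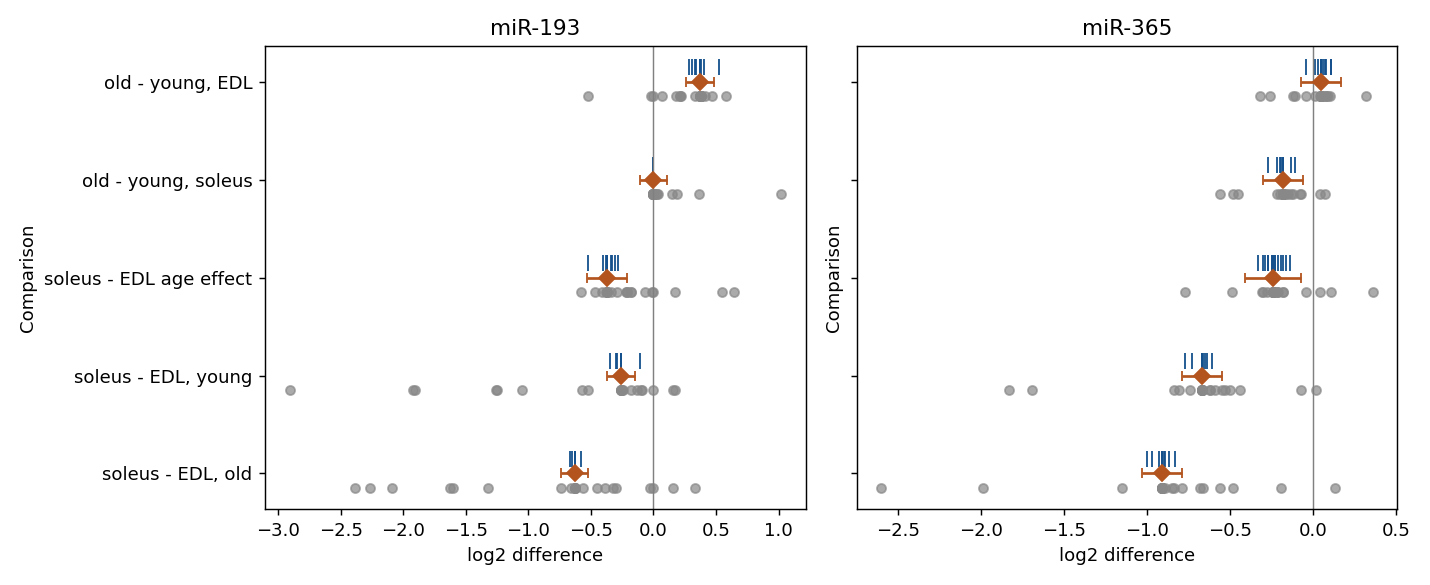
log2 differences (x axis) of miR-193 (left) and miR-365 (right) in the 5 comparisons (y axis). Orange diamonds with bars are the reported values with their SE, blue ticks the values with 1 array left out, and grey points the values under the other settings. miR-365 between the muscles stays below 0 in every setting but spot medians without background subtraction (0.02 and 0.13), whereas miR-193 between the muscles spreads from -2.91 to 0.33.

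The opposite arms of both hairpins and an antisense neighbour were on the same arrays. miR-193* (4 probes) and miR-365* (2 probes), the 5p arms, were well above background on 0 of 16 arrays. Feature Extraction's own detection call was positive for miR-193* on old EDL 2 and old EDL 4, where its brightest probe gave at most 14.7 units. miR-3549 is annotated on the strand opposite Mir193, at chr10:65170337-65170355 (GRCr8).
rno-miR-193a-5p: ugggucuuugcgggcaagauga
rno-miR-3549: aucuugcccgcaaagaccc
These are shown because all 19 bases of miR-3549 are the reverse complement of a stretch of miR-193a-5p. The brighter miR-3549 probe gave 12.5 to 24.5 units in EDL and 18.8 to 23.8 units in soleus, and was well above background on old EDL 2 and 3 and young soleus 8. As percent of the scaling percentile the same probe was 0.959 to 2.61% in EDL and 2.76 to 7.1% in soleus. Its ranges thus overlapped between the muscles before scaling and not after it, with soleus higher. The signal was divided by lower percentiles in soleus (290 to 681 units) than in EDL (589 to 1864 units). No muscle difference is read from this dim probe. Feature Extraction's own detection call for miR-3549 was positive on 3 of 4 young EDL, 3 of 4 old EDL, 4 of 4 young soleus and 4 of 4 old soleus arrays.

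The miRNAs whose levels across the arrays were most like those of each member were chosen by Pearson correlation among 74 miRNAs well above background on 12 or more arrays, each array raised to its own lowest signal well above background. These are descriptions, and the arrays share muscle, slide and brightness. For miR-365 over 16 arrays they were miR-100 (r = 0.93), miR-133a (0.93), miR-99a (0.91), miR-181a (0.88) and miR-1949 (0.88). For miR-193 they were miR-98 (0.9), miR-15b (0.74), miR-146a (0.65), miR-29c* (0.62) and miR-199a-5p (0.6), where the 8 soleus values are array floors. Within the 8 EDL arrays alone and with no floor, a choice made after values were seen, miR-193 was most like miR-29c (0.95), miR-26b (0.9), miR-98 (0.9), miR-29c* (0.89) and miR-29b (0.88). The correlation of miR-193 with miR-365 was 0.47 over the 8 EDL arrays with no floor. Over all 16, with each array's own floor, it was -0.08. The 8 soleus values of miR-193 in it are array floors, so nothing is read from that value.

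Other miRNAs reported in mouse and human cells to act on brown fat were taken as a list. It was chosen with earlier results of these arrays known, so the p-values of its members do not rest on an independent choice. Of 12 reported to favour it and on the array, 7 were tested, and miR-455, miR-182, miR-203, miR-32 and miR-129 were well above background on 0 arrays. Of these 7, 0 rose and 1 fell with age in EDL, where 12.3% of all tested miRNAs passed (median log2 difference 0.05, against 0 for all tested miRNAs). In soleus 0 rose and 2 fell with age, where 3.51% passed (median -0.03, against 0). miR-196a, reported to favour browning of white fat, was lower in old EDL (log2 difference -0.71, SE 0.12, limma adjusted p = 0.00174) and in old soleus (-0.8, SE 0.12, limma adjusted p = 0.00155). miR-30c was lower in old soleus (-0.44, limma adjusted p = 0.0384), a call lost under 16 of 39 other settings. Soleus minus EDL gave 1 higher and 3 lower in young rats (median -0.13, against 0) and 1 higher and 4 lower in old rats (median -0.33, against -0.05). Over all tested miRNAs, 19.3% were higher and 23.7% lower in young soleus, and 21.1% and 32.5% in old soleus. miR-378, which is hosted in the Ppargc1b gene, was lower in soleus at both ages (-0.64 in young and -0.41 in old rats, limma adjusted p = 0.00062 and 0.00891). miR-378*, the other arm of that hairpin and not on the list, was higher in soleus at both ages (0.45 and 0.42, limma adjusted p = 1.45e-05 and 2.1e-05). The list member miR-30b-5p was lower at both ages (-0.39 and -0.7), but of 39 other settings the young value missed the threshold under 10 and turned under 1. It missed it without young EDL 10 (-0.28), young soleus 7 (-0.34) or young soleus 8 (-0.36) alone, and without both young soleus arrays (-0.26). miR-196a was higher in soleus at both ages (0.5 and 0.41), with the sign turned when arrays were not scaled or were scaled over all probes.

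Of 9 miRNAs reported to oppose brown fat, 8 were on the array and tested, and miR-155 was not analysed here. With age, 2 rose and 0 fell in EDL, where 12.3% of all tested miRNAs passed (median 0.02, against 0). In soleus 0 passed the threshold with age, where 3.51% of all passed (median -0.07, against 0). The smallest limma adjusted p in soleus was 0.102, and the 8 differences there ran from -0.22 (miR-133a) to 0.36 (miR-34a). miR-34a, a p53 target, rose in old EDL by 0.94 on the log2 scale (SE 0.13, limma adjusted p = 0.000364). Its young EDL mean lay at the floor (log2 -4.88), so the size, SE and p-value of this rise depend on the floor. The call was kept under 34 of 39 other settings. miR-27a rose there by 0.33 (limma adjusted p = 0.0448), a call lost under 28 of 39 other settings. Between the muscles, soleus gave 2 higher and 2 lower in young rats (median 0, against 0) and 1 higher and 3 lower in old rats (median -0.19, against -0.05). These counts include miR-34a in young rats (0.38), whose young EDL mean lay at the floor. They also include miR-93 in old rats (-0.27), which was well above background on 0 soleus arrays and whose soleus means lay at the floor. The size and p-value of each depend on the floor. The shares of all tested miRNAs higher and lower in soleus are those given above, 19.3% and 23.7% in young and 21.1% and 32.5% in old rats. miR-27a, reported to restrain fat cell formation, was higher in soleus by 1.06 in young and 0.95 in old rats (limma adjusted p = 3.49e-06 and 8.9e-06), a direction that turned without scaling. miR-133a, a muscle miRNA that represses Prdm16, was lower in soleus by -0.61 and -0.77, and miR-125b-5p by -0.44 and -0.49. For the difference of the age effects, 0 of the 7 and 0 of the 8 passed the limma threshold, where 0.877% of all tested miRNAs passed.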

How the data were processed

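Per the labels, total RNA was extracted with the miRNeasy Mini Kit and labelled with Cy3. The deposited intensity values are spot signals made, per the file headers, with Agilent Feature Extraction 10.7.3.1 (10.7 per the submitters' processing notes), background-corrected by that program, with no between-array scaling recorded there. The authors' deposited table of all arrays held the same intensity values (100% equal within 0.01) and was not analysed separately.

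Control spots and outlier-flagged spots (3.03%, 17 of 640 spots of the pair over all arrays) were left out, and 0 spots were saturated. Spots of a probe were averaged. A probe was well above background where a share over 0.5 of its spots had the flag. Each array was scaled by the 75th percentile over the 95 probes well above background on all 16 arrays, raised to a floor of 0.03389 (the lowest scaled signal well above background, as a median over arrays) and converted to log2. The brightest probe stood for a miRNA, and miRNAs well above background on 4 or more arrays (114) were tested in 1 limma model (limma 3.58.1, R 4.3.3) of 4 group means, with Benjamini-Hochberg adjustment at 0.05 within a comparison. SE is limma's. Tests were two-sided and the script was tested on simulated data. Sequences are from RefSeq (GRCr8). Other packages were data.table (version 1.17.8), jsonlite 2.0.0, Python 3.11.15, numpy 2.4.6, pandas 2.3.3 and matplotlib 3.10.9.

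The pair, the lists and the settings were chosen with earlier results of these data known. Named are the pair, its arm partners and seed relatives, the 5 miRNAs most correlated with each, and up to 6 brown fat list members past the threshold per comparison. Alternatives covered scaling, background, floor, probe rule, filter, covariate, replicate blocks and each array left out. Added after seeing the data were Feature Extraction's total gene signal, the dimmer probe, and leaving out young soleus 7 and 8. Normexp (offset 50) used the median signal. Same-numbered EDL and soleus samples are not stated to come from 1 animal.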

Additional observations from a re-analysis of the deposited data

How the results depend on the processing

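Signal over background limits miR-193 in soleus, where no setting measures a level, and a difference smaller than the spread of 4 arrays would not be seen. Leaving out 1 array at a time gave, for old minus young, 0.28 to 0.52 (miR-193, EDL), 0 to 0 (miR-193, soleus), -0.04 to 0.11 (miR-365, EDL) and -0.27 to -0.11 (miR-365, soleus). It gave for the difference of the age effects -0.52 to -0.28 (miR-193) and -0.33 to -0.14 (miR-365), and for soleus minus EDL -0.35 to -0.11 (young) and -0.67 to -0.58 (old) for miR-193, and -0.77 to -0.61 and -1 to -0.83 for miR-365. miR-193 passed the threshold in EDL (0.52) and in the difference of age effects (-0.52) without young EDL 10, and in young muscle (-0.35) without young EDL 9. miR-365 in EDL turned to -0.04 without young EDL 7.

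Where the cause is not stated below it was not tested. No call is read from miR-193 between the muscles, since its soleus values are floors. Its value in young rats passed the threshold with a floor 2 times (-1.26) or 4 times lower (-1.91), a floor of 0.001 (-2.91), percentiles over all probes (-1.25), no scaling (-1.05), quantile normalization (-0.52), the median of detected probes (-0.24), flagged spots kept (-0.25) and total gene signal (-1.92). With each array's own floor the muscle values were 0.17 and 0.16, which follows from the higher floors of dim arrays. The floor of 0.001 turned the difference of age effects of miR-193 to 0.64. miR-193 in EDL passed with the median of detected probes (0.21), the mean of probes (0.18) and flagged spots kept (0.41). In old muscle it missed the threshold with array brightness as covariate (-0.39) and was 0 on the dimmer probe, whose values all lay at the floor.

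miR-365 in EDL turned with percentiles over all probes (-0.26), quantile normalization (-0.12) and the median of detected probes (-0.11), which also turned its difference of age effects (0.04). With the labelling spike-in it passed in soleus with age (-0.48) and missed in young muscle (-0.07). Normexp turned miR-193 in EDL (-0.52), miR-365 in EDL (-0.32) and soleus (0.04), and the differences of age effects (0.55 and 0.36). It took miR-365 between muscles (-0.55 young, -0.19 old) and miR-193 in old muscle (-0.03) below the threshold. Spot medians with no background subtraction gave for old minus young -0.02 (miR-193, EDL), -0.04 (miR-365, EDL) and 0.07 (miR-365, soleus), for the differences of age effects 0.17 and 0.11, and for soleus minus EDL 0.16 and 0.33 (miR-193) and 0.02 and 0.13 (miR-365).

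Named list miRNAs kept their direction and call in 565 of 663 values. Turned were miR-196a in young and old muscle (-0.51 and -0.65 with percentiles over all probes, -0.65 and -1.23 without scaling, -0.05 young with normexp), miR-27a in young muscle (-0.1 without scaling) and old muscle (-0.13 with percentiles over all probes, -0.74 without scaling), miR-125b-5p (0.17) and miR-30b-5p (0.21) in young muscle with the spike-in, and miR-34a in EDL (-0.5) with normexp. Counts of miRNAs past the threshold were 14 in EDL (0 to 22 under other settings), 4 in soleus (0 to 39), 1 for the difference of age effects (0 to 29), 49 in young muscle (5 to 70) and 61 in old muscle (7 to 102). Of these, 22 of 49 were higher in young soleus, against 2 of 63 without scaling and 61 of 64 with the spike-in. In old rats 24 of 61 were higher, against 1 of 93 and 32 of 49.

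Deviations of same-numbered EDL and soleus arrays correlated at -0.56 to 0.58, over 0.1 in 4 of 8 pairs. Whether the same number stands for the same animal was not tested. With the number in the sample names as a random replicate block (correlation -0.06) miR-365 between muscles was -0.67 and -0.91 and miR-193 in EDL 0.37, and no call of the pair changed. With title number as a fixed replicate block, 13 miRNAs passed in soleus with age. Requiring 8 or more arrays left miR-193 untested, and fitting only the groups compared gives no difference of age effects.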
